A study of Mus musculus with 4 samples.

Results

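The genes examined here encode the secreted and membrane-bound guidance ligands and their receptors: ephrins and Eph receptors, semaphorins with plexins and neuropilins, Slits with Robo receptors, and netrins with Unc5 receptors and Dcc. They were chosen by a pattern of gene names in the array's own annotation, with earlier results of these data known. The pattern left out the netrin-G genes Ntng1 and Ntng2. It matched 69 genes (35 ligands and 34 receptors), measured by 91 probes of the 39429 non-control probes on the array. Of these 69 genes, 65 entered the test, among 24150 genes tested in all. The cells came from mouse kidneys at embryonic day E15.5, on a mixed background of the 129 and C57BL/6 strains, that carried the Six2GFP reporter. Sorting by flow cytometry separated a GFP-positive from a GFP-negative fraction of those kidneys, each hybridised on 2 one-colour Agilent arrays from 0.25 µg of RNA. Both fractions carry the label of nephron progenitor, although the negative fraction is the rest of the kidney, and one label field mentions tamoxifen while the protocols describe no such treatment. The labels name no separate animals or litters, so the p-values below measure only the spread between these arrays.

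Guidance ligands were first known for steering axons, and they act by binding receptors that rearrange the cytoskeleton, so that a cell is repelled, attracted or held at a boundary. Ephrins are themselves anchored in the membrane and signal at cell contacts, semaphorins act through plexins, often with a neuropilin as co-receptor, Slits act through Robo receptors, and netrins act through Dcc and the Unc5 receptors. In the developing kidney, Slit2 and Robo2 are known for restricting the site at which the ureteric bud grows out, and Six2 marks the cap mesenchyme, whose cells renew themselves and give rise to the nephron.

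All values are log2 processed signals relative to the 75th percentile of their own array. A difference is the mean of the positive arrays minus the mean of the negative arrays, with its standard error (SE, n = 2 arrays per group), and a gene was called when limma's Benjamini-Hochberg adjusted p over all genes tested was under 0.05. Signals of different probes depend on the probe and were not set against each other. Six2, the gene behind the sort, read 5.58 and 5.74 in positive cells and -0.17 and -0.15 in negative cells, a difference of 5.82 ± 0.10 or 56.5-fold (limma adjusted p = 5.0e-04). Arrays of one fraction correlated at 0.995 for the positive and 0.994 for the negative cells, against 0.945 to 0.951 between fractions, and 72.5% to 79.1% of probes per array were well above background.

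The negative fraction holds many cell types, and their markers moved with the sort. All 6 endothelial markers were lower in the positive cells, with a summed level (log2 of the sum of their signals relative to the 75th percentile) of -2.34 to -2.32 on the positive arrays and 2.29 to 2.39 on the negative arrays. The 6 ureteric bud markers (1.10 to 1.52 against 4.72 to 5.08) and the 6 early nephron markers (1.25 to 1.26 against 4.04 to 4.19) were all lower too. So were 5 of 6 stromal markers (2.32 to 2.75 against 6.11 to 6.25) and 4 of 5 podocyte markers (-0.64 to -0.55 against 2.24 to 2.43). The exceptions, Foxd1 of the stromal list at -0.21 ± 0.14 and Synpo of the podocyte list at 0.08 ± 0.09, were not called. Of the 6 markers of neurons and neural crest tested, 3 were lower and 1, Elavl4, was higher, while none of 6 macrophage markers was called (2.61 to 3.16 against 3.33 to 3.54). Tbx18 of the stromal list and Stmn2 of the neuronal list were not well above background on the positive arrays; no other tested marker of the lists given here was below that limit on both positive arrays. Cap mesenchyme markers were higher for 5 of 6, with Eya1 the exception at 0.04 ± 0.09. The part of this change in cell make-up in the differences below was not tested, and in such bulk samples fewer cells of a type and less RNA per cell cannot be told apart.

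More guidance genes were lower than higher in the Six2GFP-positive cells. Of the 65 tested, 33 were lower (50.8%), 10 were higher (15.4%) and 22 were not called. Among all genes tested, 18.3% were lower and 20.7% higher, so the share of lower calls among guidance genes lay well above the background and the share of higher calls a little below it. The median difference over the guidance genes was -0.40, beside 0.15 over all genes tested. Counting only calls of at least 2-fold, 25 guidance genes were lower (38.5%, background 12.7%) and 4 were higher (6.15%, background 3.63%). Both counts of lower genes include Robo3 and Ntn4. Only the negative arrays brought these genes into the test, so only a lower result was open to them. With probes well above background on all 4 arrays, 31 of 63 guidance genes were lower and 11 higher, beside 3647 lower and 5337 higher of 22291 genes. With normexp background correction and the 75th percentile, Slit3 (-0.82), Ntn4 (-0.49), Robo3 (-0.24) and Sema3e (-0.67) were less than 2-fold lower. The 4 genes higher by at least 2-fold were Robo2, Sema4g, Unc5c and Sema3f. Fewer guidance genes were called in either direction when any 1 array was left out, and in proportion more higher than lower calls were lost. The same held for all genes tested, so the drop was not particular to guidance genes. The shares set beside the background are given for all 4 arrays only. Centring on the array median, which moved the median of all genes tested from 0.15 to 0.41, gave 17 higher and 31 lower guidance genes, so that the share of higher among called guidance genes was 35.4% in place of 23.3%.

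The medians of ligands and receptors lay near each other, and their order was not stable. Of 34 ligands tested, 5 were higher (14.7%) and 18 lower (52.9%), with a median difference of -0.49. Of 31 receptors tested, 5 were higher (16.1%) and 15 lower (48.4%), with a median of -0.40. The background was 20.7% higher and 18.3% lower. Without the probe that stood for Dcc, which lists a second gene, the receptor median was -0.56 and the ligand median -0.49. Across the 4 pairings of a positive with a negative array, the ligand median ran from -0.53 to -0.41. The receptor median ran from -0.77 to -0.26. These pairings share arrays and show the spread between arrays only, so they cannot show whether ligands and receptors differ as sets of genes. The families differed more among themselves. Ephrin ligands had a median of 0.16 and Eph receptors -1.42, semaphorins -0.82 and plexins with neuropilins -0.23, Slits -0.40 and Robos -1.10, and netrins -3.26 and their receptors -0.99. The plexin and neuropilin median was 0.02 when arrays were centred on their median, and each of the other 7 family medians kept its sign under every alternative in which members were fitted 1 value per gene, though not its size. The netrin median was -0.82 and the Robo median -0.20 with normexp background correction and the 75th percentile, in which an offset of 50 is added (-0.78 and -0.32 with quantile normalization after it). For probes well above background on all 4 arrays these medians were -2.06 over 2 netrins and -0.11 over 3 Robos. The Slit median was -0.14 with arrays centred on their median, and the Eph receptor median was -0.82 with a gene's probes averaged. The netrin receptor median was -1.73 without the Dcc probe. No test was made between families, several of which have only 3 or 4 members tested.

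**Figure D1:**
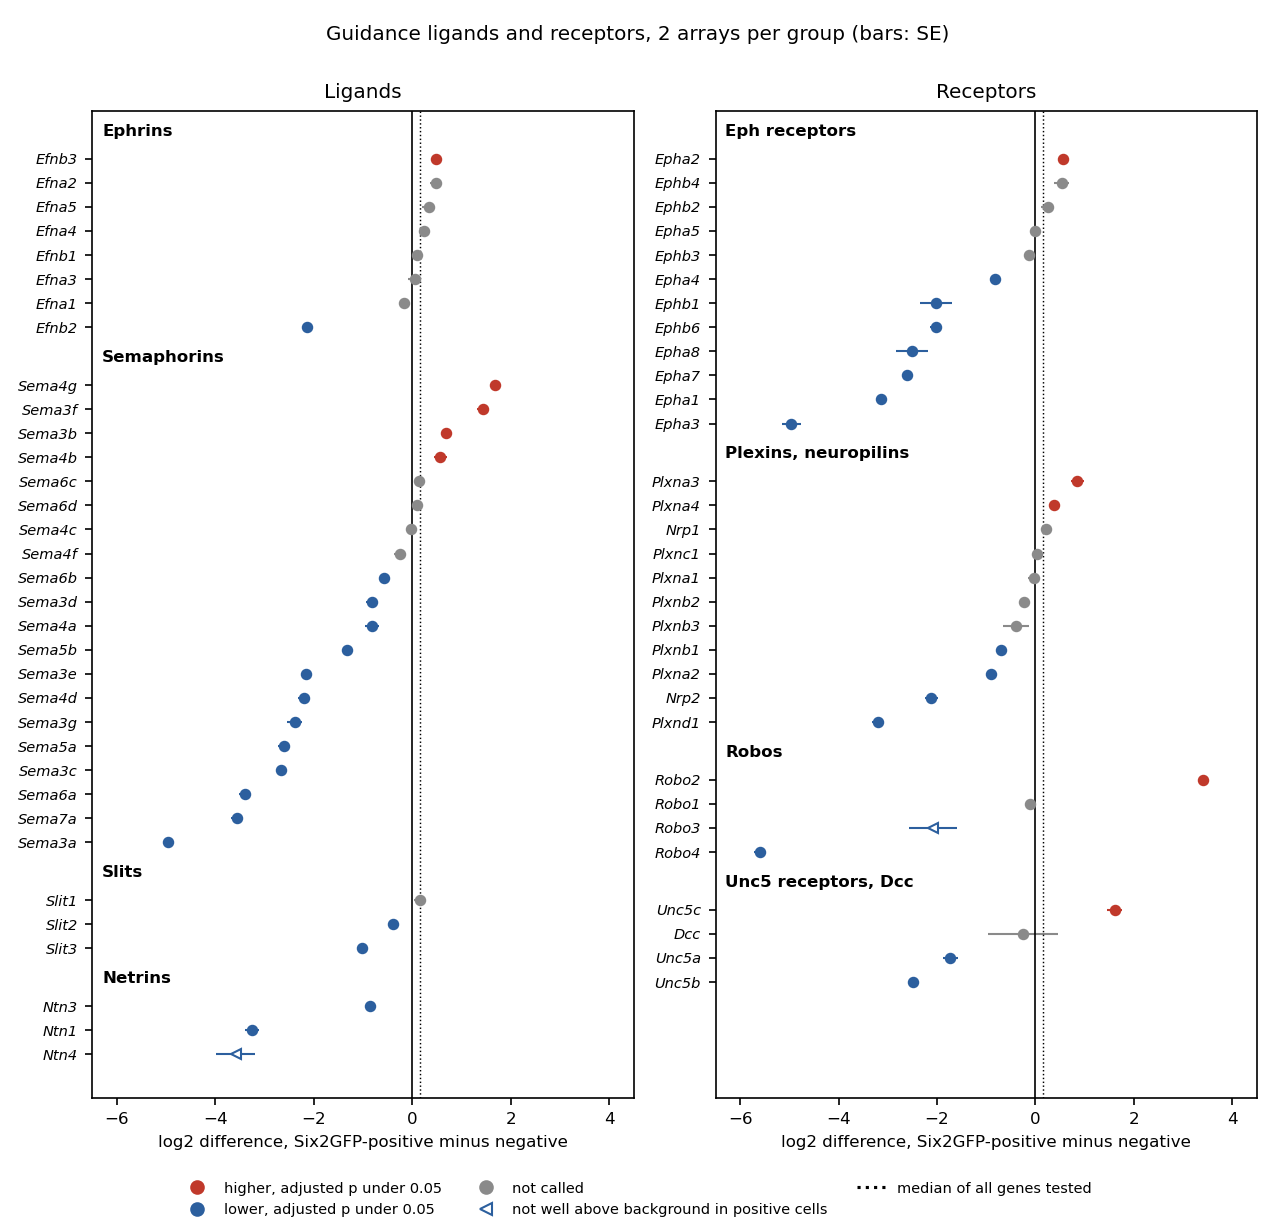
Log2 difference (Six2GFP-positive minus negative, horizontal axis) of each of the 65 guidance genes tested, ligands left and receptors right, ordered by size within a family. Points are the fitted differences, bars the SE from 2 arrays per group, colours the limma call, and the dotted line the median of all genes tested at 0.15. Robo2 at 3.41 lies farthest to the right and Robo4 at -5.60 farthest to the left.

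The promoters of 4 genes with large differences, 2 higher and 2 lower in the positive cells, are printed to show how unlike they are in base composition. Each run is the 250 bases upstream of an annotated transcription start, from RefSeq on the mouse assembly GRCm38.p6, read 5′ to 3′ on the gene's own strand, and the capitals mark CG dinucleotides. Robo2 has 3 annotated starts (minus strand, chr16:75447294-75447543, chr16:75092771-75093020 and chr16:74411826-74412075), with 8, 4 and 14 CG dinucleotides, and the arrays do not say which start was in use. Unc5c (plus strand, chr3:141465314-141465563) holds 23. Robo4 (plus strand, chr9:37401722-37401971) and Sema3a (plus strand, chr5:13396534-13396783) hold 2 each.
Robo2 start 1: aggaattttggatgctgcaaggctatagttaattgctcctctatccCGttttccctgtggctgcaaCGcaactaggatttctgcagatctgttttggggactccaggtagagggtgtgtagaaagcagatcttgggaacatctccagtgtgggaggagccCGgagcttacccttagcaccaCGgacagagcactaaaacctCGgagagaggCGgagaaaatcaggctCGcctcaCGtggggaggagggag
Robo2 start 2: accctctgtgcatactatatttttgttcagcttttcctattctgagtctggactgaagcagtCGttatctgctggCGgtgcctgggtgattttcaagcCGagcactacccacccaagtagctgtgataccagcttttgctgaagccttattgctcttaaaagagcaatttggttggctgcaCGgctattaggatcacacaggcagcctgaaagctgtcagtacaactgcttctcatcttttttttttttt
Robo2 start 3: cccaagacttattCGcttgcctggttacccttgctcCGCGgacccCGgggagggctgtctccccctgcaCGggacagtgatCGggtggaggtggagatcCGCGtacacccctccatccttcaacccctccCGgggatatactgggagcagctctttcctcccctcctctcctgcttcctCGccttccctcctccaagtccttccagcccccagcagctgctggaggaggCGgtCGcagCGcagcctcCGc
Unc5c: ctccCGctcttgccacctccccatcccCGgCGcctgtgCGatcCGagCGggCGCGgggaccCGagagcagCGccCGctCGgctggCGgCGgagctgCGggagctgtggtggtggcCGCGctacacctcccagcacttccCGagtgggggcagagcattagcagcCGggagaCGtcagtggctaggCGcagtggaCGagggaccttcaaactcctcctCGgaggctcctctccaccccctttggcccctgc
Robo4: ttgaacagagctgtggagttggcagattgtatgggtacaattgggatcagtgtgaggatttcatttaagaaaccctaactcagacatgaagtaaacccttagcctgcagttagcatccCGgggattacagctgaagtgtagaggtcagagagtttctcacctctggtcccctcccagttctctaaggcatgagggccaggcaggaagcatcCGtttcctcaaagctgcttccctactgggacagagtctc
Sema3a: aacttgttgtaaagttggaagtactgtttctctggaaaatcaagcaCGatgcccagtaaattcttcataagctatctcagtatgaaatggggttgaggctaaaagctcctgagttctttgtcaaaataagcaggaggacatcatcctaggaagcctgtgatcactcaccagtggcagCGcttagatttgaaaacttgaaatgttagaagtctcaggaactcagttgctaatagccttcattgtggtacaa

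Such windows were available for 59 of the 69 guidance genes, and taking each gene's richest window the median was 17 CG dinucleotides, beside 6 over 27025 genes. Those 27025 are all genes with a window, tested on the arrays or not, and were not matched to the guidance genes. The medians were 18.5 for 6 genes higher in the positive cells, 17 for 31 lower and 16 for 19 not called. CG-poor windows such as those of Robo4 and Sema3a were therefore the minority among lower genes. The GC box, searched as GGGCGG on both strands, occurred in 44 of the 59 (74.6%), beside 35.4% of all genes with a window, and in 4 of 6 higher, 25 of 31 lower and 13 of 19 uncalled genes. The TATA box, searched as TATAAA on both strands, occurred in Efnb2 and Slit2 only (3.39%, beside 14.3% of all genes). TCAGGTT, the core of a sequence that Six-family proteins bind, was found in 1 guidance gene, Plxnb2, beside 4.07% of all genes; a match is a description of the letters only, and its absence says nothing about a factor.

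The Slit and Robo genes held both extremes. Robo2, the receptor through which Slit2 acts in the early kidney, read 3.35 and 3.54 in positive cells and 0.02 and 0.03 in negative cells. The positive arrays were far above the negative ones, with a difference of 3.41 ± 0.11, or 10.7-fold (limma adjusted p = 5.2e-04). Its probe lies at chr16:73894653-73894712 on the mm9 assembly used by the array files, and a second probe at chr16:73897261-73897318 gave 3.43, from 2.38 and 2.61 against -0.89 and -0.98. Robo1, the gene next to Robo2 in the RefSeq order of coding genes on GRCm38.p6, differed by -0.11 ± 0.08 and was not called (limma adjusted p = 0.333).

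Robo4, a Robo known from endothelial cells, read -3.85 and -3.61 in positive cells and 1.86 and 1.89 in negative cells. Its difference of -5.60 ± 0.12, 48.6-fold lower (limma adjusted p = 5.0e-04), was the largest of any guidance gene, though -4.97 with normexp. The 6 endothelial markers had differences from -1.68 for Pecam1 to -5.47 for Cdh5, and a link to Robo4 was not tested. Robo3, a divergent Robo of commissural neurons and the gene next to Robo4, was not well above background on either positive array (-7.47 and -8.79) and read -5.92 and -6.17 on the negative arrays. It was at least 2.00-fold lower in the positive cells. Because only the negative arrays brought Robo3 into the test, only a lower result was open to it. Its limma adjusted p of 0.0384 belongs to the fitted difference, which uses positive signals not well above background. The call was lost when either negative array was left out. The call was also lost when dim probes were kept in (adjusted p 0.0711) and with normexp and the 75th percentile, where the difference was -0.24 (adjusted p 0.0529). An "at least" fold sets the detected group against the lowest signal that is well above background on the other group's arrays.

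Of the Slits, secreted ligands of the Robos, 2 of 3 were called lower, beside 18.3% of all genes tested. Slit3 read -2.90 and -2.92 on the positive and -1.96 and -1.80 on the negative arrays, so the groups did not overlap, and it was 2.04-fold lower (-1.03 ± 0.10, limma adjusted p = 0.00441). It was still called lower, but by less than 2-fold, after quantile normalization (-0.83) and with arrays centred on their median (-0.78). The same held with normexp and the 75th percentile (-0.82). Slit2 read 0.39 and 0.48 against 0.82 and 0.84 and was 1.32-fold lower (-0.40 ± 0.09, limma adjusted p = 0.0331). The Slit2 call was lost when any 1 of the 4 arrays was left out, with arrays centred on their median (-0.14, adjusted p 0.370), when dim probes were kept in (adjusted p 0.0710) and with replicate number as a block (adjusted p 0.0507). Slit1 differed by 0.15 ± 0.12 and was not called.

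Netrins, laminin-related secreted ligands, were called lower in all 3 genes that could be tested, of which Ntn4 was tested through the negative fraction alone. Ntn1, the best known attractant of the family, read -2.40 and -2.49 in positive cells and 0.97 and 0.66 in negative cells, 9.59-fold lower (-3.26 ± 0.14, limma adjusted p = 7.6e-04), and its second probe gave -2.45. Ntn4, a basement membrane netrin, was not well above background on the positive arrays (-9.37 and -8.27) and read -5.29 and -5.17 on the negative arrays. It was at least 3.52-fold lower. Because only the negative arrays brought Ntn4 into the test, only a lower result was open to it. Its limma adjusted p of 0.00673 belongs to the fitted difference, which uses positive signals not well above background. The call was lost without negative replicate 2. With normexp, Ntn4 was called lower but its difference was -0.49, or -0.55 after quantile normalization, in place of -3.59, so the size of the fall depends on the background correction. Ntn3 read -1.30 and -1.13 against -0.36 and -0.35 and was 1.82-fold lower (-0.86 ± 0.10, limma adjusted p = 0.00749), which was also lost without negative replicate 2. Ntn5 was well above background on 1 negative array only and was not tested.

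The netrin receptors did not move together. Unc5c, which mediates repulsion from netrin, read 2.00 and 1.84 in positive cells and 0.47 and 0.16 in negative cells, 3.05-fold higher (1.61 ± 0.15, limma adjusted p = 0.00402). Its second probe was also higher, by 1.08. Unc5b read -0.02 and -0.07 against 2.40 and 2.47, 5.57-fold lower (-2.48 ± 0.09, limma adjusted p = 5.8e-04). Unc5a read -2.82 and -2.47 against -0.92 and -0.91, 3.31-fold lower (-1.73 ± 0.15, limma adjusted p = 0.00349). For all 3 receptors the groups stood clearly apart, Unc5c with the positive arrays on top and the other two with the negative arrays on top. Unc5d was not well above background on any array.

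No level of Dcc could be read. The probe that stood for it in the fit (4.39 and 3.20 on the positive, 4.82 and 3.26 on the negative arrays, difference -0.25 ± 0.71) lists accessions of both Dcc and Gcm1 and is placed at chr7:68417162-68417221 (mm9), away from the chromosome of Dcc, and its values split by replicate number more than by fraction. The 2 Dcc probes placed on the gene's own chromosome were not well above background on any array. The other 90 of the 91 guidance probes lie on the chromosome of their gene, and no other lists several genes. Without such probes 64 guidance genes were tested, 11 of them higher, Efna2 being added, and 33 lower.

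**Figure D2:**
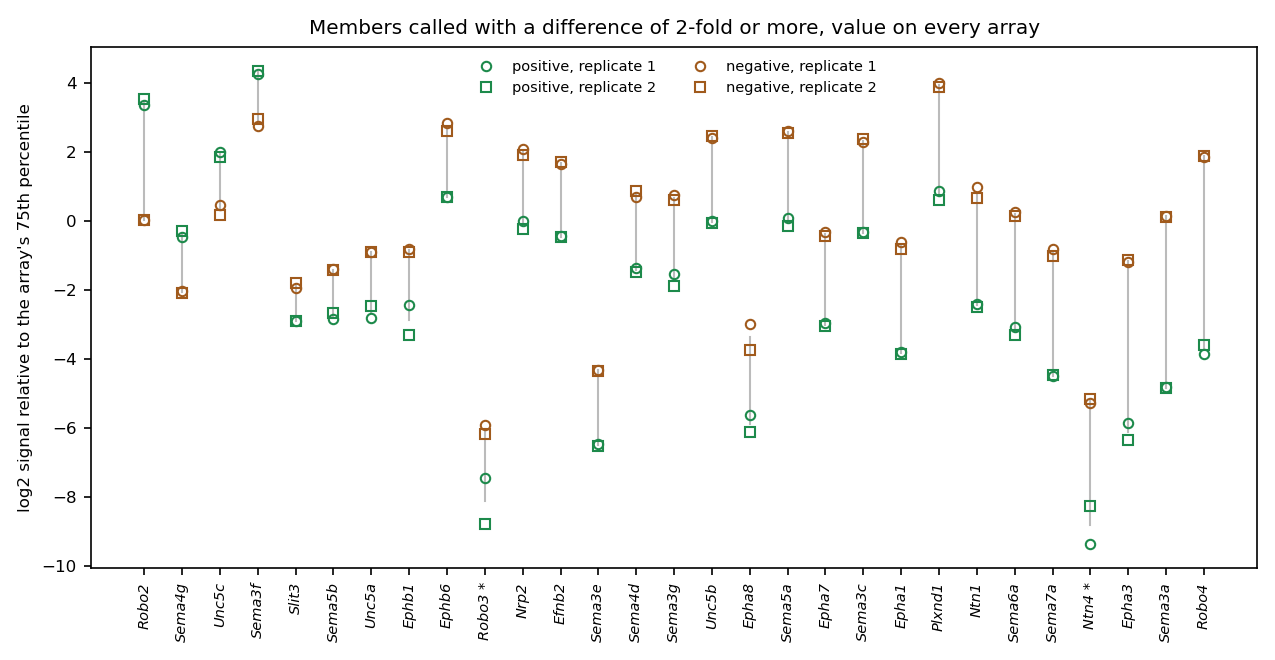
Signal on the log2 scale, less the 75th percentile of its array (vertical axis), on each of the 4 arrays for the 29 guidance genes called with a difference of 2-fold or more, ordered from Robo2 (highest in positive cells) to Robo4. Green marks are positive and brown marks negative arrays, circles replicate 1 and squares replicate 2, and an asterisk marks genes not well above background on the positive arrays. Heights compare within a gene only. The genes were picked by their call and difference, so the separation of the groups follows from that choice.

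Semaphorins formed the largest ligand family, with 4 of 20 higher (20%, background 20.7%), 12 lower (60%, background 18.3%) and 4 not called. Among the secreted class 3 semaphorins, which signal through neuropilins and class A plexins, all 7 were called, 2 higher (28.6%) and 5 lower (71.4%). Sema3a, the founding axon repellent, read -4.82 and -4.85 in positive cells and 0.14 and 0.12 in negative cells, 31.3-fold lower (-4.97 ± 0.08, limma adjusted p = 5.0e-04). Its second probe, at chr5:13473453-13473512 (mm9), gave a smaller difference of -3.04, from -5.81 and -6.10 against -2.80 and -3.02, in the same direction. Sema3g read -1.54 and -1.88 against 0.75 and 0.60, 5.23-fold lower (-2.39 ± 0.15, limma adjusted p = 0.00174). The second Sema3g probe gave only -0.58 and did not pass when probes were tested singly (limma adjusted p = 0.0851).

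The other lower class 3 genes were Sema3c at -2.67, Sema3e at -2.16 and Sema3d at -0.82, of which the Sema3d call was lost in 3 of the 4 fits that left out an array, all but the one without negative replicate 2. With normexp and the 75th percentile Sema3a and Sema3e were called lower at -3.86 and -0.67. Sema3d, Sema3a and Sema3e lie near each other on chromosome 5, with no coding gene between the first pair and 3 between the second. Sema3f, a repellent that prefers neuropilin 2, went the other way and read 4.25 and 4.35 in positive cells and 2.75 and 2.96 in negative cells. It was 2.72-fold higher (1.44 ± 0.12, limma adjusted p = 0.00301). Sema3b, separated from Sema3f by 3 coding genes on chromosome 9, read 1.71 and 1.81 against 0.99 and 1.17 and was 1.61-fold higher (0.69 ± 0.11, limma adjusted p = 0.0159). The Sema3b call held only in the fit without negative replicate 2 among those leaving out an array.

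Of the 13 membrane-bound semaphorins of classes 4 to 7, 2 were higher (15.4%, background 20.7%), 7 lower (53.8%, background 18.3%) and 4 not called. Sema4g read -0.46 and -0.31 in positive cells and -2.03 and -2.09 in negative cells, 3.19-fold higher (1.68 ± 0.10, limma adjusted p = 0.00142). Sema4b was higher by 0.57 ± 0.14 (limma adjusted p = 0.0417), a call lost when any 1 array was left out and without a filter on dim probes. Both belong to class 4, whose other members went down or stayed uncalled.

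Sema7a, the semaphorin anchored by a lipid tail and a ligand of integrins as well as plexin C1, read -4.49 and -4.48 in positive cells and -0.81 and -1.03 in negative cells, 11.9-fold lower (-3.57 ± 0.11, limma adjusted p = 5.4e-04). Sema6a, a transmembrane ligand of plexins A2 and A4, read -3.08 and -3.32 against 0.24 and 0.15, 10.6-fold lower (-3.40 ± 0.12, limma adjusted p = 5.9e-04). Both were more than 10-fold lower, with the 2 arrays of each group close together; with normexp and the 75th percentile Sema7a was called at -2.72. Sema5a (-2.61), Sema4d, the ligand of plexin B1 (-2.21), and Sema5b (-1.33) were lower as well. Smaller falls were seen for Sema4a (-0.82) and Sema6b (-0.58). The Sema6b call was lost when any 1 array was left out. It was also lost with quantile normalization (-0.30), with arrays centred on their median (-0.33) and with normexp and quantile normalization (-0.18). The Sema4a call was lost only with an array left out, in all such fits except that without positive replicate 1. Sema4c (-0.03), Sema4f (-0.25), Sema6c (0.13) and Sema6d (0.10) were not called.

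Among the semaphorin receptors, Plxnd1 differed most. It read 0.86 and 0.59 in positive cells and 3.98 and 3.87 in negative cells, 9.19-fold lower (-3.20 ± 0.13, limma adjusted p = 7.1e-04), and its second probe gave -2.86. The co-receptors diverged: Nrp2 read -0.01 and -0.24 against 2.07 and 1.91, 4.34-fold lower (-2.12 ± 0.13, limma adjusted p = 0.00144), whereas Nrp1 differed by 0.22 ± 0.10 and was not called. Plxna2, a receptor of class 6 semaphorins, read -0.86 and -0.99 against 0.01 and -0.05, 1.87-fold lower (-0.90 ± 0.10, limma adjusted p = 0.00581), and Plxnb1 fell by 0.71.

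The higher receptors of this family were 2 class A plexins with modest differences. Plxna3 read 0.11 and 0.40 on the positive arrays and -0.59 on both negative arrays, 1.80-fold higher (0.85 ± 0.13, limma adjusted p = 0.0153). Plxna4 read -1.40 and -1.43 against -1.81 and -1.78, 1.30-fold higher (0.38 ± 0.08, limma adjusted p = 0.0314). The groups overlapped for neither gene, yet the Plxna4 call was lost when any 1 array was left out, without a filter on dim probes and with replicate number as a block, and the Plxna3 and Plxnb1 calls in 3 of those 4 fits each, the exception being the fit without positive replicate 1 for Plxna3 and without positive replicate 2 for Plxnb1. Plxna1 (-0.03), Plxnb2 (-0.23), Plxnb3 (-0.40) and Plxnc1 (0.04) were not called.

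Of the 8 ephrins, 1 was higher (12.5%, background 20.7%), 1 lower (12.5%, background 18.3%) and 6 not called. None of the 5 ephrin-A genes, which are held in the membrane by a lipid anchor, was called. Their differences lay between -0.16 for Efna1 and 0.48 for Efna2, whose limma adjusted p of 0.050 fell just outside the threshold. Efna2 stayed uncalled in 6 of 15 alternatives and was called higher in the others. The 6 were the authors' series values, no filter on dim probes and the fits leaving out an array. Its limma adjusted p was 0.0429 with quantile normalization, 0.0268 with normexp and the 75th percentile, and 0.0370 with replicate number as a block. With arrays centred on their median it was 0.0167, and Efna4 and Efna5 passed as well. Efnb2, a transmembrane ephrin, read -0.45 and -0.48 in positive cells and 1.63 and 1.69 in negative cells. It was 4.38-fold lower (-2.13 ± 0.08, limma adjusted p = 6.6e-04). Its second probe gave -1.13. Efnb3 read 0.78 and 0.69 against 0.20 and 0.29, 1.41-fold higher (0.49 ± 0.09, limma adjusted p = 0.0230), a call lost when any 1 array was left out and without a filter on dim probes. Efnb1 differed by 0.09 ± 0.08 and was not called.

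Eph receptor tyrosine kinases fell in 7 of the 12 tested (58.3%, background 18.3%) and rose in 1 (8.33%, background 20.7%). Epha3, a receptor of ephrin-A ligands, read -5.87 and -6.37 in positive cells and -1.20 and -1.13 in negative cells, 31.0-fold lower (-4.96 ± 0.20, limma adjusted p = 6.7e-04). Epha1 read -3.82 and -3.86 against -0.62 and -0.81, 8.74-fold lower (-3.13 ± 0.11, limma adjusted p = 5.7e-04). Epha7 read -2.97 and -3.05 against -0.34 and -0.44, 6.14-fold lower (-2.62 ± 0.09, limma adjusted p = 5.8e-04), and its 3 probes ranged from -2.62 to -1.84. The arrays of a fraction lay within 0.50 of each other for all 3 genes, well inside the gap between fractions. With normexp and the 75th percentile Epha3 and Epha1 were called lower with smaller differences of -3.14 and -2.48.

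Epha8 (-2.51), Ephb1 (-2.02) and Epha4 (-0.83) were also lower, and the Ephb1 call was lost when either negative array was left out, while Epha8 was called at -1.10 with normexp and the 75th percentile. Epha2, a receptor of ephrin-A1 found in epithelia, read 0.57 and 0.60 in positive cells and -0.07 and 0.12 in negative cells, 1.48-fold higher (0.56 ± 0.10, limma adjusted p = 0.0232), which was lost when any 1 array was left out and without a filter on dim probes. Epha5 (-0.01), Ephb2 (0.25), Ephb3 (-0.13) and Ephb4 (0.53) were not called, and Epha6 and Epha10 were not well above background on any array.

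Ephb6, an Eph receptor without kinase activity, gave opposite answers from its probes. The brighter probe, at chr6:41570442-41570501 (mm9), read 0.69 and 0.68 in positive cells and 2.84 and 2.60 in negative cells, 4.09-fold lower (-2.03 ± 0.12, limma adjusted p = 0.00135). The other, at chr6:41564657-41564716, read -4.31 and -4.28 against -4.49 and -4.94, a difference of 0.42 that did not pass when probes were tested singly (limma adjusted p = 0.138). The direction for Ephb6 therefore rests on 1 of its 2 probes, and with a gene's probes averaged its difference was -0.81; that of Sema3g was then -1.48 and that of Sema3a -4.01. Of the 17 guidance genes with several tested probes, 3 (Ephb6, Sema3a and Sema3g) had probes more than 2-fold apart and 5 (Efna3, Ephb4, Ephb6, Plxnc1 and Sema6d) had probes of opposite sign. No gene had probes called in both directions. The weaker probes of Ephb4 (-0.40, limma adjusted p = 0.0300) and Sema6d (-0.36, limma adjusted p = 0.0353) were called lower when probes were tested singly, whereas their brighter probes were not called.

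**Figure D3:**
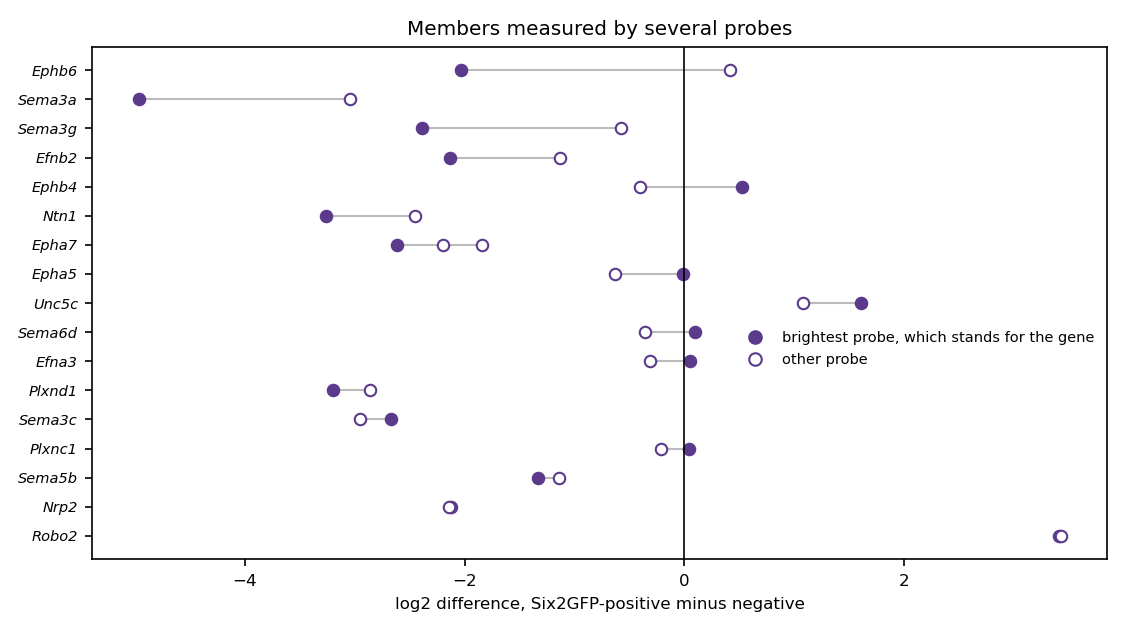
Log2 difference (Six2GFP-positive minus negative, horizontal axis) given by each tested probe of the 17 guidance genes with several, ordered by the distance between probes. Filled points are the brightest probe, which stands for the gene, and open points the others. The Robo2 probes coincide at 3.41 and 3.43, and the Ephb6 probes lie on either side of 0 at -2.03 and 0.42.

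Ligands and receptors that are known to bind each other were set side by side in 26 pairs, a list of textbook pairs drawn up after the differences had been seen, in which genes recur, so it is a description only. Both partners were lower in the positive cells in 9 pairs, among them Ntn1 with Unc5b (-3.26 and -2.48), Sema3e with Plxnd1 (-2.16 and -3.20) and Sema3c with Nrp2 (-2.67 and -2.12). The receptor was higher and the ligand lower in 4 pairs: Slit2 with Robo2 (-0.40 and 3.41), Ntn1 with Unc5c (-3.26 and 1.61), Sema5a with Plxna3 (-2.61 and 0.85) and Sema6a with Plxna4 (-3.40 and 0.38). Of these 4, only Ntn1 with Unc5c had both calls when positive replicate 2, negative replicate 1 or negative replicate 2 was left out, and Sema5a with Plxna3 had them too without positive replicate 1. Slit2 with Robo2 and Sema6a with Plxna4 also lost a call without a filter on dim probes and with replicate number as a block. Pairs with both partners lower numbered 7 to 8 with an array left out. The reverse held for Sema3f with Nrp2 (1.44 and -2.12). No pair had both partners higher, and in the other 12 pairs at least 1 partner was not called, as for Efna5 with Epha3 (0.33 and -4.96) and Sema3a with Nrp1 (-4.97 and 0.22).

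**Figure D4:**
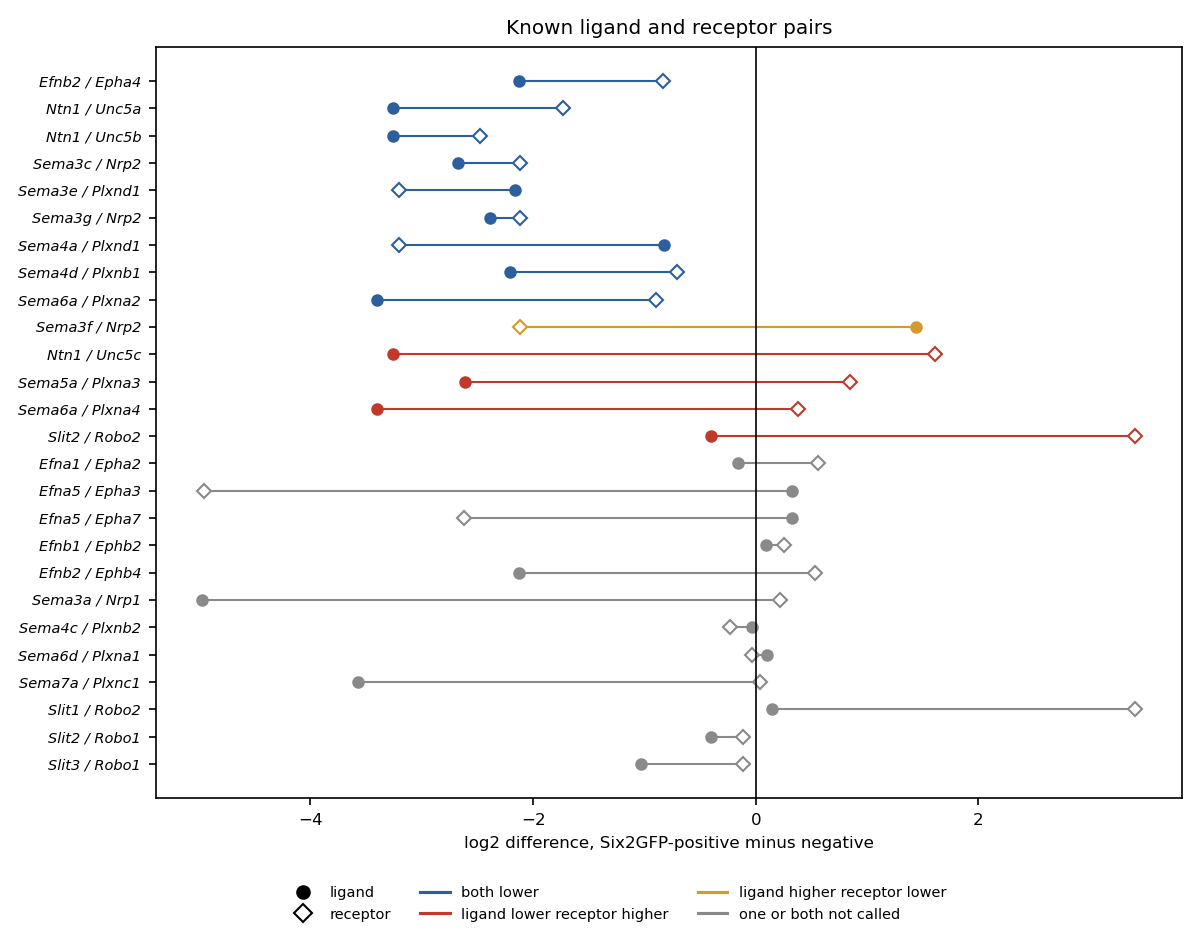
Log2 difference (Six2GFP-positive minus negative, horizontal axis) of the ligand (filled circle) and the receptor (open diamond) in each of 26 known pairs, 1 pair per line. Colours give the calls of the partners. In 9 pairs both lie left of 0 as called genes, and in 4 the line runs from a lower ligand to a higher receptor, Slit2 with Robo2 reaching farthest right; the calls of Slit2, Plxna3 and Plxna4 are lost when negative replicate 1 is left out.

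Other genes of guidance signalling, co-receptors and proteins downstream of the receptors, were called in both directions. Of 59 listed, 57 were tested, 13 were higher (22.8%, background 20.7%) and 16 lower (28.1%, background 18.3%), and their median difference was 0.00, beside 0.15 for all genes tested. The largest higher genes were Dpysl4, a collapsin response mediator of semaphorin signalling, at 1.58 ± 0.08 (2.99-fold, limma adjusted p = 0.00115), the actin-oxidising Mical2 at 1.48 ± 0.09 (2.78-fold, limma adjusted p = 0.00136) and the adaptor Grb10 at 1.22 ± 0.10 (2.33-fold, limma adjusted p = 0.00334). The largest lower gene was the VEGF receptor Flt1 at -5.25 ± 0.12 (38.1-fold, limma adjusted p = 5.0e-04). Kdr, the other VEGF receptor of the list, was not called at 0.07 ± 0.10. After Flt1 came the exchange factor Vav3 at -3.82 ± 0.30 (14.1-fold, limma adjusted p = 0.00282). Dpysl3 followed at -2.35 ± 0.08 (5.09-fold, limma adjusted p = 5.8e-04). Dpysl4 and Dpysl3 belong to 1 family and moved in opposite directions. Draxin and Timd2 were not tested. Of 2 further netrin receptors, neogenin (Neo1) was not called at -0.05 ± 0.09. The other, Dscam, was lower at -0.82 ± 0.11 (limma adjusted p = 0.0107). The Slit effectors Srgap1 (0.16) and Srgap2 (0.00) were not called, while Srgap3 was lower at -0.92.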

How the data were processed

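Gene expression was measured in 2 samples of Six2GFP-positive and 2 of Six2GFP-negative cells. The deposited scanner files hold a background-subtracted processed intensity per spot from Agilent Feature Extraction 10.7.3.1 (protocol GE1_107_Sep09), per the file headers, with probe positions on mm9; no dye ratio is involved. The authors' series value table, given as intensity, was within 0.01 log2 of it for 99.8% of probes on each array and served as an alternative.

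Outlier and control spots were left out, spots of a probe were averaged, and the 75th percentile of log2 signals was subtracted per array. The 30012 probes whose spots stood well above background on both arrays of a fraction were kept, and the brightest of them stood for a gene. Probes were named from accessions through RefSeq (26034), from current symbols (3190) or as in the files (10171). The groups were compared, two-sided, with lmFit and eBayes of limma 3.58.1 (R 4.3.3) and Benjamini-Hochberg adjustment over 24150 genes; the procedure was tested on simulated data. The number of arrays limits the precision. Same-numbered arrays deviated together with a correlation of 0.22 over only 2 pairs, and no label says that a number marks a shared batch, so the fit has no block.

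The members, marker and signalling lists were chosen with earlier results of these data known. One marker list is not reported here. Named with values on every array are, per family and role, the 3 largest called differences in each direction and members whose probes differ by over 2-fold; a rule to name the brightest member of a family was not used, since signals of different probes are not comparable. Alternatives covered scaling, background correction, filters, probe choice, the variance model, a replicate block, each array left out and, added after seeing the Dcc probe, leaving out probes of several genes. Promoter windows were read from RefSeq, and figures were drawn with matplotlib 3.10.9.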

Additional observations from a re-analysis of the deposited data

How the results depend on the processing

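No guidance gene called here was called in the opposite direction under any alternative, and 24 of the 33 lower and 4 of the 10 higher calls (Robo2, Sema4g, Unc5c and Sema3f) held under all of them. Of the 22 genes not called, only 2 stayed uncalled with the same sign throughout. With normexp and the 75th percentile, for example, Ephb4 was called higher (limma adjusted p = 0.0271) and Plxnb2 lower (limma adjusted p = 0.0384). Higher calls numbered 17 with arrays centred on their median, 6 without a filter on dim probes, and 4 to 5 with an array left out; lower calls stayed within 1.5 times of 33 throughout (25 to 29 with an array left out). The ligand median was -0.40 after quantile normalization, -0.23 with arrays centred on their median, -0.35 with normexp and the 75th percentile, -0.41 with normexp and quantile normalization, -0.58 without a filter, -0.40 for probes well above background on all 4 arrays, -0.70 over single probes, and -0.56 to -0.43 with an array left out. The receptor median was -0.15 with arrays centred on their median and -0.56 without probes of several genes. With an array left out it ran from -0.75 to -0.30. Both medians stayed below 0 in each. For centring, filter and normexp the cause was not tested; leaving out an array leaves 1 array in a group, which is then assumed to vary like the other group. With replicate number as a block, 11 guidance genes were higher and 32 lower; Slit2 and Plxna4 lost their calls, and the pairing rests on a shared number only. The all-gene split of calls moved from 4989 higher and 4413 lower to 10810 and 3767 with arrays centred on their median. Signals near background limit Ntn4, Ntn5 and Robo3 to bounds or no value.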
